A study of Mus musculus with 7 samples.

Results

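The genes of the mitochondrial respiratory chain and ATP synthase were examined in RNA-seq of mouse hippocampus. The members were the mitochondrially encoded protein genes (symbols starting with mt-Nd, mt-Co, mt-Atp or mt-Cytb) and the protein-coding nuclear genes whose symbols start with Ndufa, Ndufb, Ndufc, Ndufs, Ndufv, Uqcr, Cox4 to Cox8 or Atp5, together with Sdha, Sdhb, Sdhc, Sdhd and Cycs. A sum of at least 10 counts over the 7 libraries was required. By this rule, 100 genes were members, 93 of them nuclear and 7 mitochondrially encoded, among 17657 gene identifiers with at least 10 counts. A further 8 identifiers had a matching symbol and type but fewer counts. All mice were males of the outbred CD1 stock and matched for age, which is not given in the sources used here. Control mice were untreated (3 libraries, numbered 1 to 3). DMSO mice received intraperitoneal injections of the vehicle 2 times per week for 2 months (2 libraries, numbered 2 and 3). ONX-0914 mice received 10 mg/kg of ONX-0914, an inhibitor of the immunoproteasome, on the same schedule (2 libraries, numbered 1 and 2). The comparison with control addresses how the respiratory chain genes stood after chronic injection, and the comparison with DMSO separates the inhibitor from its vehicle.

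Oxidative phosphorylation moves electrons from NADH through complex I, and from succinate through complex II, to ubiquinone, then through complex III, cytochrome c and complex IV to oxygen, while complex V uses the resulting proton gradient to make ATP. The complexes other than complex II are assembled from subunits of both genomes. The mitochondrial genome is transcribed from both strands into long polycistronic RNAs, which are cut into single messages by removal of the tRNAs between them. The nuclear subunits are transcribed gene by gene and imported as proteins. Neurons depend on this pathway for most of their ATP, since restoring ion gradients after synaptic activity is costly.

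Of the 13 protein genes of the mitochondrial genome, 7 were members and the other 6 had almost no counts in any library. mt-Atp6, mt-Atp8, mt-Co3, mt-Nd3 and mt-Nd4l were at 0 counts in all 7 libraries and mt-Co2 had 1 count in total. Of these 6, 5 have a nearly identical annotated copy in the nuclear genome. When each gene was divided into windows of 100 bases, the length of the sequenced reads, 99.5% of the windows of mt-Atp6 and of mt-Co2, 99.9% of those of mt-Co3, 97.6% of those of mt-Nd3 and 98.5% of those of mt-Nd4l also occurred in another annotated transcript. No window of mt-Atp8 did. The deposited lines for multimapping reads were at 0 in all libraries. The sequences of mt-Nd4l and of the first 300 bases of mt-Nd3 are shown because a read from either can also be placed on the copy.
mt-Nd4l: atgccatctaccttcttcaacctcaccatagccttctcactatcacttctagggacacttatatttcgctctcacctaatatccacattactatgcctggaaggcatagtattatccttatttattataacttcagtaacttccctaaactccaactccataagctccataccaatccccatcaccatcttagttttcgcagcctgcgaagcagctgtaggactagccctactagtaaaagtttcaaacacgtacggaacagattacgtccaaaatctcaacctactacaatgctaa
mt-Nd3: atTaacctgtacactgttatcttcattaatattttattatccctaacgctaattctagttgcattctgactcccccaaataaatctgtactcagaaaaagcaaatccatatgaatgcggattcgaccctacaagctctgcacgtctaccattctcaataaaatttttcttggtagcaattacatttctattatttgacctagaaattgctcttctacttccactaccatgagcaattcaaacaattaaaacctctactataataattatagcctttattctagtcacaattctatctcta
The copy of mt-Nd4l, the pseudogene Gm10222, was identical over 294 bases. The copy of mt-Nd3, the pseudogene Gm28438, differed by 1 substitution in 345 bases, T3C, counted from 1 at the 5′ end with the mitochondrial base first and marked by the capital letter. Gm28438 had 45, 50 and 27 counts in control, 65 and 44 in DMSO, and 73 and 139 in ONX-0914. Gm10222 had 2 to 13 counts per library. The 6 genes fell under the minimum of 10 counts, and their counts of 0 or 1 are not read as absence of the transcripts. Among the 7 members, no window of mt-Nd1, mt-Nd5, mt-Nd6 or mt-Cytb was shared, whereas 3.20% of mt-Nd2, 30.8% of mt-Co1 and 60.8% of mt-Nd4 was. Reads from such windows may be missing from the counts of the latter 2, and whether to the same extent in every library was not tested.

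The libraries differed in depth and in tissue content. The total count on genes was between 2842675 and 3877006 in 6 libraries and 13782270 in ONX-0914 replicate 2. All 5 markers of CA1 and CA3 pyramidal neurons and all 5 of the dentate gyrus were detected, with summed levels of 430 to 511 and 360 to 490 CPM (counts scaled to the library size) in the control and DMSO libraries, against 173 and 168 CPM in ONX-0914 replicate 1 and 402 and 328 CPM in ONX-0914 replicate 2. The 7 markers of thalamus and midbrain summed to 1074 CPM in ONX-0914 replicate 1, against 93.8 to 138 CPM in the others, and 6 striatal markers to 269 CPM, against 11.0 to 45.9 CPM. In ONX-0914 replicate 2, 5 blood markers summed to 833 CPM, against 29.9 to 46.2 CPM in the control and DMSO libraries and 96.0 CPM in ONX-0914 replicate 1, and 5 microglial markers to 352 CPM, against 220 to 275 CPM. In both ONX-0914 libraries, 5 endothelial markers were higher, with 245 and 249 CPM against 134 to 179 CPM, and 5 markers of neurons lower, with 5362 and 5042 CPM against 5707 to 7179 CPM. The 5 oligodendrocyte markers summed to 3653 to 5190 CPM in control, 5721 and 6622 CPM in DMSO, and 6778 and 3531 CPM in ONX-0914 replicates 1 and 2. The 5 astrocyte markers summed to 1369 CPM in ONX-0914 replicate 2, against 1968 to 2511 CPM in the others. The 5 choroid plexus markers summed to 186, 53.5 and 40.0 CPM in control and to 115 and 52.2 CPM in DMSO. They summed to 62.6 and 184 CPM in ONX-0914 replicates 1 and 2. The part of these differences in the results below was not tested. In bulk tissue, fewer cells of a type and less RNA per cell cannot be told apart. The labels do not say that libraries come from separate animals, so p-values measure the spread between libraries only.

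Mitochondrially encoded transcripts took a larger share of the counts in all 4 libraries of injected mice than in any control library, and by far the largest in ONX-0914 replicate 2. The 7 genes held 1.02%, 0.893% and 0.714% of the counts on genes in the control libraries. They held 1.19% and 1.23% in the DMSO libraries, 1.30% in ONX-0914 replicate 1 and 3.15% in ONX-0914 replicate 2. The exact 95% binomial interval of the latter was 3.14% to 3.16%, and such intervals cover counting error only. The 93 nuclear members together held 1.02%, 0.984% and 0.984% in control, 1.10% and 1.11% in DMSO, and 1.15% and 1.04% in ONX-0914. Thus, the summed nuclear share of ONX-0914 replicate 2 lay between the control and the DMSO values, and the ratio of mitochondrially encoded to nuclear counts was 3.05 in that library, against 0.725 to 1.0 in control, 1.08 and 1.11 in DMSO and 1.13 in ONX-0914 replicate 1. The 2 mitochondrial ribosomal RNAs, which are transcribed from the same strand as most of the messages, held 0.216%, 0.150% and 0.103% of the counts in control, 0.391% and 0.357% in DMSO, and 0.250% and 0.556% in ONX-0914.

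**Figure D1:**
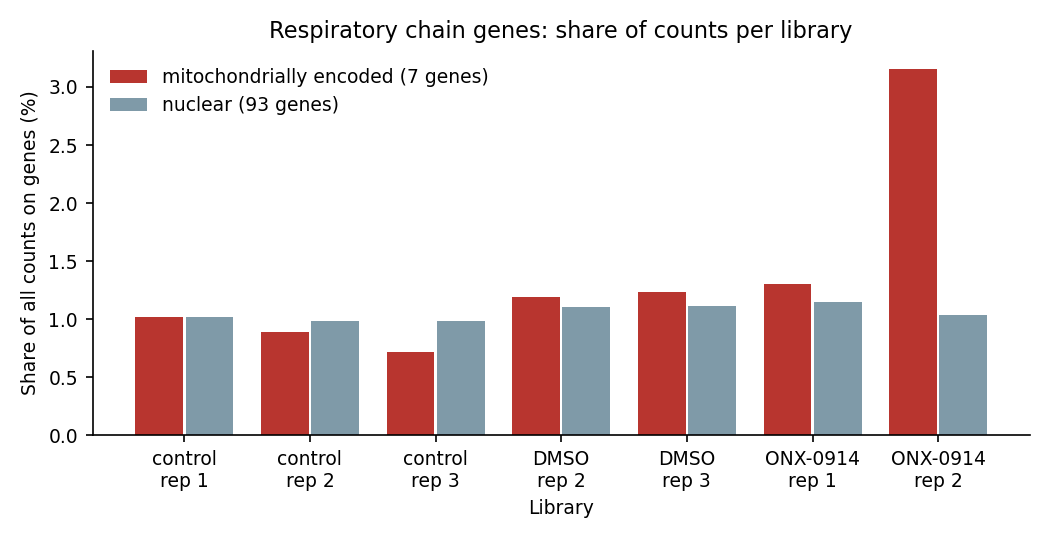
Share of all counts on genes (%) held by the 7 mitochondrially encoded members (red bars) and the 93 nuclear members (grey bars) in each of the 7 libraries. The nuclear share is between 0.984% and 1.15% everywhere, while the mitochondrial share runs from 0.714% to 1.30% in 6 libraries and is 3.15% in ONX-0914 replicate 2.

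The complex I subunits of the membrane arm showed the widest range among the mitochondrially encoded members. mt-Nd4, a proton-pumping subunit, had 418, 342 and 285 CPM in control, 461 and 527 in DMSO, and 468 and 2146 in ONX-0914. mt-Nd1, which lines the ubiquinone channel, had 1319, 1181 and 887 CPM in control, 1552 and 1528 in DMSO, and 1578 and 5718 in ONX-0914. mt-Nd2, another pumping subunit, had 849, 788 and 623 CPM in control, 1001 and 981 in DMSO, and 1007 and 3136 in ONX-0914. In these 3 genes, the injected libraries lay above the control libraries without overlap, and ONX-0914 replicate 1 lay close to the DMSO libraries. mt-Nd5 had 1201, 1168 and 962 CPM in control, 1226 and 1309 in DMSO, and 1374 and 2399 in ONX-0914. mt-Nd6, the only protein gene transcribed from the other strand, had 619, 572 and 434 CPM in control, 587 and 787 in DMSO, and 747 and 709 in ONX-0914. It was the only member of the class whose DMSO and control libraries overlapped, and the only one in which ONX-0914 replicate 2 did not lie above the other 6 libraries. The strand setting of the counting is not given in the sources used here, and mt-Nd6 shares its locus with RNA of the opposite strand.

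mt-Cytb, the catalytic cytochrome b of complex III, had 1731, 1449 and 1146 CPM in control, 1890 and 2260 in DMSO, and 1986 and 5202 in ONX-0914. mt-Co1, the catalytic subunit of complex IV, had 4419, 3600 and 3055 CPM in control, 5655 and 5041 in DMSO, and 5408 and 9287 in ONX-0914. For both genes, the lowest injected library was above the highest control library. Per kilobase of transcript, mt-Co1 was the most abundant member in control, with 2389 CPM per kb, followed by mt-Cytb with 1260, mt-Nd1 with 1180, mt-Nd6 with 1044, mt-Nd2 with 726, mt-Nd5 with 609 and mt-Nd4 with 253. This order was the same within each of the 3 control libraries, although the ranges over the libraries overlapped between mt-Cytb, mt-Nd1 and mt-Nd6 and between mt-Nd2 and mt-Nd5. The last place of mt-Nd4 is not established, since 60.8% of its windows were shared with another annotated gene and its reads may be undercounted.

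**Figure D2:**
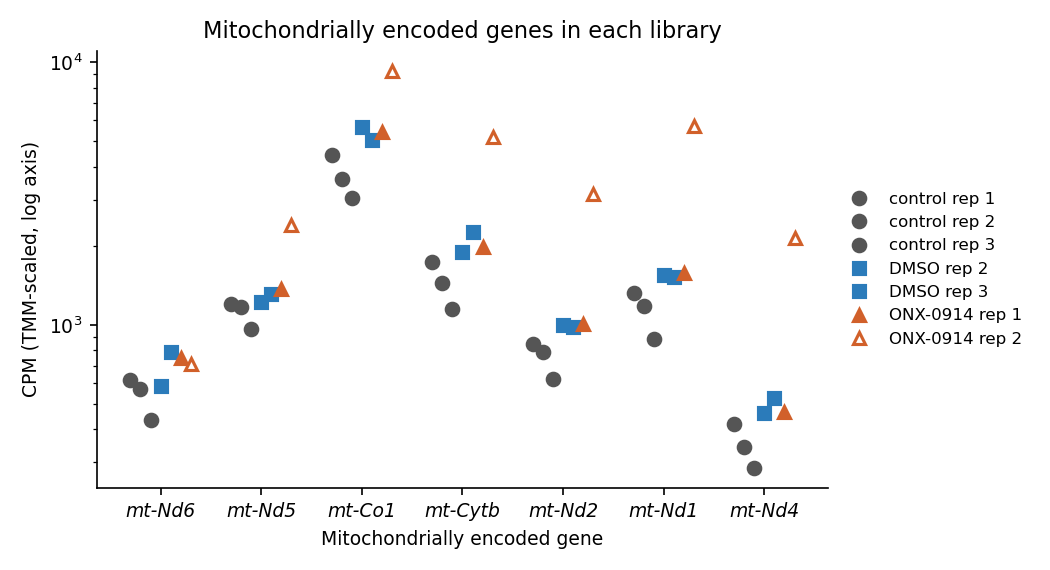
Level (CPM, log axis) of each mitochondrially encoded member in each library, ordered by the difference of ONX-0914 replicate 2 (open triangles) from control (circles). Squares are DMSO and filled triangles ONX-0914 replicate 1. In 6 genes all injected libraries lie above all control libraries, and in mt-Nd6 both ONX-0914 libraries and 1 DMSO library do.

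No mitochondrially encoded member passed the test between ONX-0914 and control with all libraries. The fitted log2 fold change was 1.91 (SE 0.51, FDR = 0.151) for mt-Nd4, 1.69 (SE 0.46, FDR = 0.151) for mt-Nd1 and 1.46 (SE 0.41, FDR = 0.156) for mt-Nd2. It was 1.32 (SE 0.38, FDR = 0.158) for mt-Cytb, 0.99 (SE 0.28, FDR = 0.158) for mt-Co1 and 0.77 (SE 0.26, FDR = 0.201) for mt-Nd5. The lowest was that of mt-Nd6, with 0.43 (SE 0.22, FDR = 0.344). The FDR here is the Benjamini–Hochberg adjusted p of the edgeR quasi-likelihood test over 13152 genes, of which 0.137% were called at 0.05. At an unadjusted p under 0.05, 6 of 7 genes were higher, against 10.1% of all genes tested, and none was lower, against 7.73%. DESeq2 called 5 of the 7 (mt-Nd1, mt-Nd2, mt-Nd4, mt-Co1 and mt-Cytb) with all libraries, against 2.83% of all genes. The median over the class was 1.32, against 0.05 over all genes.

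Without ONX-0914 replicate 2, the fold changes were smaller for the genes other than mt-Nd6 (0.43 with all libraries and 0.46 without it), and the SE was smaller for all 7 genes. In that fit, where the single ONX-0914 library is assumed to vary like the other groups, 5 of 7 genes were called higher in ONX-0914 than in control, against 8.95% of all genes, and none lower, against 9.38%. mt-Co1 had a log2 fold change of 0.55 (SE 0.14, FDR = 0.00635), mt-Nd1 of 0.48 (SE 0.14, FDR = 0.0214) and mt-Nd2 of 0.42 (SE 0.13, FDR = 0.0305). mt-Cytb had 0.46 (SE 0.15, FDR = 0.0368) and mt-Nd6 0.46 (SE 0.16, FDR = 0.0444), while mt-Nd4 had 0.42 (SE 0.15, FDR = 0.0507) and mt-Nd5 0.31 (SE 0.12, FDR = 0.0924). Thus, what ONX-0914 replicate 1 alone shows is a difference of 0.31 to 0.55 on the log2 scale, while the values of 0.77 or more rest on ONX-0914 replicate 2. Without ONX-0914 replicate 1, 6 of 7 genes were called higher, against 21.6% of all genes, and none lower, against 24.5%. The median over the class was 0.46 without the former library and 1.84 without the latter.

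The vehicle comparison gave values close to those of ONX-0914 replicate 1. With all libraries, the log2 fold changes of DMSO against control ran from 0.19 (SE 0.26) for mt-Nd5 to 0.53 (SE 0.29) for mt-Co1, with a median of 0.45, and the FDR was 0.999 throughout. No member of either class was called, against 0.0152% of all genes, nor was any mitochondrially encoded member at an unadjusted p under 0.05, against 1.51% higher and 1.19% lower over all genes. DESeq2 called no member either. When ONX-0914 replicate 2 was left out, and with it its part in the shared estimate of spread, mt-Co1 (0.54, SE 0.11, FDR = 0.0201), mt-Cytb (0.53, SE 0.12, FDR = 0.0378) and mt-Nd4 (0.51, SE 0.12, FDR = 0.0422) were called higher in DMSO, against 0.645% of all genes, and none lower, against 0.345%. Between ONX-0914 and DMSO, no member was called, against 0.0456% of all genes, and DESeq2 called none. There, mt-Nd4 (1.4, SE 0.58), mt-Nd1 (1.24, SE 0.51) and mt-Nd2 (1.06, SE 0.46) were higher at an unadjusted p under 0.05, against 7.84% of all genes, and none was lower, against 6.39%. These values rest on ONX-0914 replicate 2. Without it, the log2 fold changes against control in ONX-0914 and DMSO were 0.42 and 0.51 for mt-Nd4. They were 0.48 and 0.45 for mt-Nd1, and 0.42 and 0.40 for mt-Nd2. The comparisons with control share the control libraries, and those with ONX-0914 share the ONX-0914 libraries.

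The position of single libraries, read from the same counts, gave the same picture. The mitochondrially encoded genes are cut from shared RNAs, so here and in the counts above they are not independent observations. Both ONX-0914 libraries lay above all control libraries in 7 of 7 mitochondrially encoded genes, against 16.9% of all genes, and both DMSO libraries in 6 of 7, against 15.7%. All 4 injected libraries lay above all control libraries in 6 of 7, against 4.30%. Of 85 nuclear members that passed the filter on low counts, both ONX-0914 libraries were above control in 25 (29.4%), both DMSO libraries in 38 (44.7%) and all 4 in 16 (18.8%). The reverse was rare. In 1 member, Uqcrc2, both ONX-0914 values were lower than every control value, against 16.3% of all genes, and in no member were all 4 injected libraries below control, against 4.74%. The DMSO libraries were both lower in Atp5e and Ndufb8, which brought the nuclear members with both DMSO libraries on 1 side of control to 40, against 30.7% of all genes.

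As a class, the nuclear members differed less from control on the log2 scale than the mitochondrially encoded ones, but in 1 library they differed widely from gene to gene. The median difference from the control mean over 85 tested nuclear genes was 0.08, -0.01 and -0.06 on the log2 scale in the control libraries, 0.16 and 0.20 in DMSO, 0.16 in ONX-0914 replicate 1 and 0.34 in ONX-0914 replicate 2. The corresponding median over the 7 mitochondrially encoded genes was 0.24, 0.08 and -0.27 in control, 0.42 and 0.47 in DMSO, and 0.48 and 1.87 in ONX-0914. The control medians had an SD of 0.07 for the nuclear and 0.26 for the mitochondrially encoded genes. Hence, the smaller nuclear differences stand beside a smaller spread in control. The nuclear differences had an SD across genes of 0.14 to 0.16 in control, 0.22 and 0.25 in DMSO, 0.20 in ONX-0914 replicate 1 and 0.96 in ONX-0914 replicate 2, where they reached from -1.84 (Ndufa12) to 2.33 (Ndufa11). The SD over all genes tested was 0.24 to 0.26 in control, 0.41 and 0.45 in DMSO, 0.70 in ONX-0914 replicate 1 and 0.83 in ONX-0914 replicate 2. Therefore, the SD of the nuclear members was below that of genes at large in all libraries but ONX-0914 replicate 2, where it was above. The nuclear members and all genes were not matched for level, which bears on such an SD. The difference is thus not read as a trait of respiratory chain genes. ONX-0914 replicate 2 lay above the other 6 libraries in 41 of 85 nuclear members, against 30.3% of all genes, and below them in 29, against 29.2%. ONX-0914 replicate 1 did so in 10, against 21.0%, and in 4, against 18.0%.

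**Figure D3:**
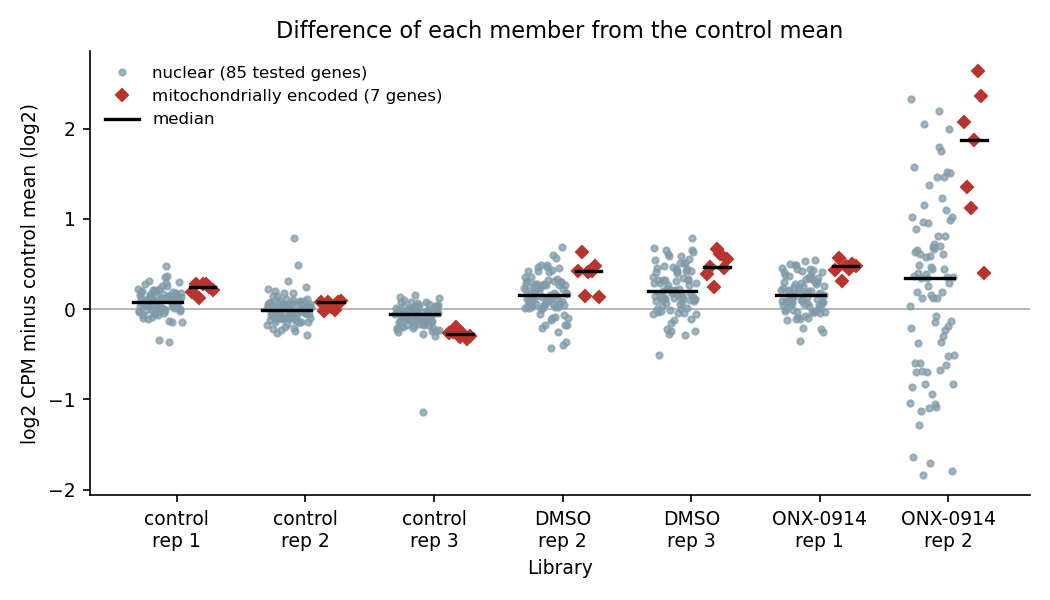
Difference of log2 CPM from the control mean for 85 tested nuclear members (grey points) and 7 mitochondrially encoded members (red diamonds) in each library, with black lines at the medians. The nuclear points spread from -1.84 to 2.33 in ONX-0914 replicate 2, and the median of the red diamonds lies above the nuclear median in all 4 injected libraries, at 0.42, 0.47, 0.48 and 1.87.

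No nuclear member passed the test between ONX-0914 and control. The fitted log2 fold changes ran from -0.58 to 1.75 with a median of 0.22, and 54 were above and 31 below 0. The FDR was 0.142 to 0.996. At an unadjusted p under 0.05, 24 nuclear members (28.2%) were higher, against 10.1% of all genes, and none was lower, against 7.73%. Over both classes, 30 of 92 members passed that p with all libraries, and 24, 16 and 13 without control replicates 1, 2 and 3. The shares of all genes at that p are not given for the fits without a control library. DESeq2 called 2, Cox7b and Ndufa11, a share near the 2.83% of all genes. Without ONX-0914 replicate 2, edgeR called 3 of 86 (3.49%), Cox6c, Ndufa10 and Ndufs6, all higher, against 8.95% of all genes. Without ONX-0914 replicate 1, it called 36 of 87 higher (41.4%), against 21.6% of all genes, and 25 lower (28.7%), against 24.5%. The higher ones of that fit include Atp5l, which passed the filter on low counts there only through ONX-0914 replicate 2. In the vehicle comparison, the median was 0.17, with 68 of 85 above 0, and 4 nuclear members (4.71%) were higher at an unadjusted p under 0.05 (Cox6c, Ndufa2, Ndufb3 and Uqcr10), against 1.51% of all genes. That count depends on the fit. With the compared groups only, 33 of 92 members of both classes passed that p, in either direction. The share of all genes at that p is not given for that fit. Between ONX-0914 and DMSO, the median was 0.06, with 5 nuclear members higher (Atp5d, Cox7b, Ndufb2, Ndufs5 and Ndufs7) and Ndufa5 lower at that p. These shares of 5.88% and 1.18% were below those of all genes, 7.84% and 6.39%.

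Complex I was grouped by symbol, with Ndufa4 and Ndufa4l2 among its accessory members. So grouped, complex I had 7 nuclear core and 31 accessory members, more than any other complex, and held both ends of the range. The 7 nuclear core subunits, which carry the flavin and iron–sulfur clusters, had a median log2 fold change of -0.11 in ONX-0914, and the 30 tested accessory subunits one of 0.37, with 1 and 9 genes higher at an unadjusted p under 0.05, against 10.1% of all genes. Without ONX-0914 replicate 2, these medians were 0.035 and 0.23, so that the direction of the core subunits rests on that library. Ndufs7, a core iron–sulfur subunit, had 24.5, 23.6 and 23.6 CPM in control, 20.0 and 24.2 in DMSO, and 23.6 and 66.4 in ONX-0914 (log2 fold change 0.94, SE 0.37, FDR = 0.250). Thus, only ONX-0914 replicate 2 was high for Ndufs7, and without it the fitted value was near 0.

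Among the accessory subunits, Ndufa9, Ndufb6 and Ndufa12 had the lowest fitted values of all nuclear members. Ndufa9, which binds near the ubiquinone channel, had 292, 302 and 297 CPM in control, 337 and 320 in DMSO, and 313 and 85.6 in ONX-0914 (log2 fold change -0.58, SE 0.44, FDR = 0.504). Ndufb6, in the membrane arm, had 103, 105 and 99.5 CPM in control, 106 and 118 in DMSO, and 110 and 31.1 in ONX-0914 (-0.56, SE 0.44). Ndufa12 had 131, 117 and 114 CPM in control, 143 and 127 in DMSO, and 133 and 33.4 in ONX-0914 (-0.55, SE 0.47). In each of the 3 genes, only ONX-0914 replicate 2 was low, and without it the fitted value was above 0. Of the 100-base windows, 24.0% of those of Ndufb6 and 11.4% of those of Ndufa12 were shared with another annotated gene, and none of Ndufa9. Ndufaf7, a methyltransferase that acts during assembly of complex I, had 44.0, 50.2 and 39.5 CPM in control, 40.9 and 49.0 in DMSO, and 41.3 and 20.8 in ONX-0914 (-0.55, SE 0.30, and -0.11 without ONX-0914 replicate 2). Ndufa5 had 128, 110 and 108 CPM in control, 127 and 160 in DMSO, and 115 and 52.5 in ONX-0914 (-0.48, SE 0.31, and -0.0084 without that library). The 8 assembly factors of the Ndufaf series had a median of 0.15, and of 0.038 without ONX-0914 replicate 2.

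At the other end, Ndufa11, an accessory subunit of the membrane arm, had 8.16, 9.77 and 7.13 CPM in control, 10.7 and 13.5 in DMSO, and 11.5 and 43.2 in ONX-0914. Its log2 fold change of 1.75 (SE 0.48, FDR = 0.156) was the highest of the nuclear members, and it was 0.46 without ONX-0914 replicate 2. Ndufa1, the accessory subunit with the highest mean level per length in control (293 CPM per kb), though not in every control library, had 133, 113 and 121 CPM in control, 152 and 163 in DMSO, and 151 and 39.0 in ONX-0914. Its fitted value was -0.39 (SE 0.46), and 0.30 without ONX-0914 replicate 2. Ndufa10 had 103, 90.7 and 99.8 CPM in control, 116 and 106 in DMSO, and 139 and 138 in ONX-0914. Here the 2 ONX-0914 libraries were alike and both above the other 5, with a log2 fold change of 0.50 (SE 0.16, FDR = 0.177) with all libraries and 0.50 (SE 0.14, FDR = 0.0120) without ONX-0914 replicate 2. Ndufs6, the third nuclear member called without ONX-0914 replicate 2 (0.49, SE 0.16, FDR = 0.0292), had 80.6, 73.3 and 83.6 CPM in control, 94.6 and 120 in DMSO, and 111 and 44.5 in ONX-0914, so that its 2 ONX-0914 libraries lay on opposite sides of control.

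Complex II, which has no mitochondrially encoded subunit, was split within itself. Sdha, the flavoprotein and the most abundant subunit per length in control (275 CPM per kb), had 782, 806 and 808 CPM in control, 806 and 767 in DMSO, and 848 and 388 in ONX-0914. Sdhb, the iron–sulfur subunit, had 75.3, 75.5 and 76.5 CPM in control, 82.5 and 87.8 in DMSO, and 84.9 and 103 in ONX-0914, so that all 4 injected libraries were above control. Of the 2 membrane anchors, Sdhc had 68.2, 63.5 and 52.7 CPM in control, 67.3 and 70.7 in DMSO, and 71.2 and 118 in ONX-0914, and Sdhd had 141, 131 and 121 CPM in control, 139 and 146 in DMSO, and 148 and 62.9 in ONX-0914. The log2 fold changes were -0.37 (SE 0.30) for Sdha, 0.31 (SE 0.16) for Sdhb, 0.63 (SE 0.24) for Sdhc and -0.32 (SE 0.32) for Sdhd, with an FDR of 0.226 to 0.614. Without ONX-0914 replicate 2, the values above 0 were smaller, 0.16 for Sdhb and 0.21 for Sdhc. In ONX-0914 replicate 1, all 4 genes lay between 0.09 and 0.22 above the control mean on the log2 scale.

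The 8 nuclear members of complex III went both ways in ONX-0914, with fitted log2 fold changes from -0.47 to 0.50 and a median of 0.04, beside a median of 0.08 in DMSO. In ONX-0914 replicate 2 alone, they lay from -1.28 to 0.88 relative to the control mean on the log2 scale. Uqcrb, with the highest mean level per length in control (181 CPM per kb), though not in every control library, had 92.3, 90.1 and 108 CPM in control, 97.5 and 109 in DMSO, and 118 and 45.1 in ONX-0914 (-0.26, SE 0.35, and 0.28 without ONX-0914 replicate 2). Uqcrc2, a core protein of the matrix side, had 230, 247 and 242 CPM in control, 239 and 238 in DMSO, and 226 and 148 in ONX-0914 (-0.36, SE 0.21, FDR = 0.389, and -0.089 without ONX-0914 replicate 2). Cycs, the electron carrier between complexes III and IV, had 52.9, 63.2 and 56.2 CPM in control, 69.5 and 65.7 in DMSO, and 61.4 and 37.8 in ONX-0914 (-0.23, SE 0.23, FDR = 0.618, and 0.0885 without ONX-0914 replicate 2). Of its 100-base windows, 22.6% were shared with another annotated gene, so its counts could be split by the mapping.

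Among the 11 tested nuclear members of complex IV, 10 had a fitted value above 0 in ONX-0914 and all 11 in DMSO, with medians of 0.38 and 0.23. Without ONX-0914 replicate 2, only 7 of the 11 were above 0 in ONX-0914, with a median of 0.20, below the 0.24 in DMSO. Cox6c had 56.8, 64.9 and 59.8 CPM in control, 81.2 and 95.6 in DMSO, and 84.7 and 118 in ONX-0914. Its log2 fold change was 0.75 (SE 0.19, FDR = 0.142) in ONX-0914 and 0.55 (SE 0.20, FDR = 0.999) in DMSO, and 0.48 (FDR = 0.0362) and 0.54 (FDR = 0.0424) without ONX-0914 replicate 2. Without that library, Cox6c was the only nuclear member called in both comparisons. Cox7b, a small subunit, had 59.3, 45.9 and 45.0 CPM in control, 51.8 and 52.6 in DMSO, and 64.1 and 229 in ONX-0914 (1.56, SE 0.44, FDR = 0.156), and 0.37 without ONX-0914 replicate 2. Cox4i1, the highest per length in control (562 CPM per kb), had 499, 379 and 412 CPM in control, 503 and 549 in DMSO, and 494 and 437 in ONX-0914 (0.11, SE 0.19), so that ONX-0914 overlapped control while both DMSO libraries were above it.

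The tissue isoforms of complex IV kept the order known for brain. In control, Cox4i1 stood at 562 CPM per kb and Cox4i2 at 0.86, Cox6a1 at 233 and Cox6a2 at 1.11, Cox6b1 at 407 and the testis form Cox6b2 at 1.65. Cox7a2 stood at 55.7 CPM per kb and the muscle form Cox7a1 at 4.70, and Cox8a at 224 and Cox8b at 0.84. The second member of each pair had between 13 and 47 counts over the 7 libraries and did not pass the filter on low counts when all libraries were used. The 4 further tested isoforms had log2 fold changes in ONX-0914 of 0.51 (SE 0.18, FDR = 0.210) for Cox6a1, -0.15 for Cox6b1, 1.01 (SE 0.39, FDR = 0.236) for Cox7a2 and 0.38 for Cox8a. Only that of Cox6a1 kept its direction without ONX-0914 replicate 2.

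Complex V had a median log2 fold change of 0.25 over 16 tested members in ONX-0914 and 0.17 in DMSO, with 7 and none higher at an unadjusted p under 0.05, against 10.1% and 1.51% of all genes. When ONX-0914 replicate 2 was left out, the median in ONX-0914 was 0.075, below that in DMSO. Atp5b, the catalytic beta subunit and the nuclear member with the highest level per length in control (833 CPM per kb), had 1525, 1519 and 1747 CPM in control, 1741 and 1597 in DMSO, and 1702 and 1051 in ONX-0914 (-0.21, SE 0.24, and 0.089 without that library). Atp5d, the delta subunit of the central stalk, had 51.1, 37.5 and 44.4 CPM in control, 49.7 and 37.7 in DMSO, and 40.8 and 184 in ONX-0914 (1.36, SE 0.50, FDR = 0.226). Atp5g2, 1 of 3 genes for the same ring subunit, had 5.68, 5.43 and 5.76 CPM in control, 5.34 and 9.95 in DMSO, and 4.76 and 23.6 in ONX-0914 (1.39, SE 0.58, FDR = 0.267). For these 2 genes, the value was below 0 without ONX-0914 replicate 2, and 34.7% of the windows of Atp5g2 were shared with another annotated gene. Atp5k, subunit e, had 23.8, 15.5 and 16.7 CPM in control, 28.0 and 27.7 in DMSO, and 25.1 and 64.9 in ONX-0914 (1.30, SE 0.38, FDR = 0.160, and 0.44 without ONX-0914 replicate 2), so that all 4 injected libraries were above control.

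**Figure D4:**
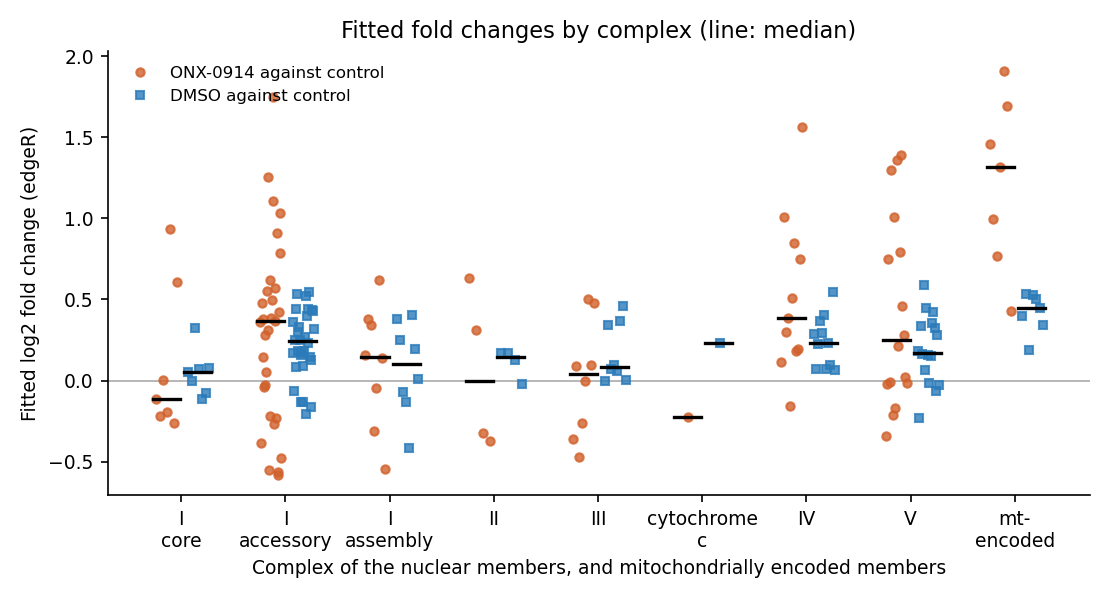
Fitted log2 fold changes of ONX-0914 (circles) and DMSO (squares) against control for the tested nuclear members by complex and for the 7 mitochondrially encoded members, with lines at the medians. The circles of the mitochondrially encoded members run from 0.43 to 1.91 with a median of 1.32, while no nuclear complex has a median above 0.38.

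In ONX-0914 replicate 2, the side on which a nuclear member fell went with its level. The 28 members with the highest level in control (103 to 1594 CPM) had a median difference of -0.63 from the control mean on the log2 scale, and 7 of them lay above it. The 29 members of middle level had a median of 0.34, with 20 above, and the 28 with the lowest level (4.48 to 38.1 CPM) a median of 1.01, with 26 above. In ONX-0914 replicate 1, the same groups had medians of 0.13, 0.17 and 0.18. Across the 85 genes, the rank correlation of the difference with the control level was -0.64 in ONX-0914 replicate 2 and -0.14 in ONX-0914 replicate 1, against -0.35 and -0.25 over all genes tested. The control level enters both quantities, genes are not independent replicates, and each value describes 1 library. The rank correlation of the nuclear members' levels with their control means was 0.73 in ONX-0914 replicate 2, whereas it was at least 0.9855 in each of the remaining libraries. The mitochondrially encoded members did not follow this order. Their control means of 349 to 3691 CPM were within or above the range of the 28 highest nuclear members, and all 7 lay above the control mean in both ONX-0914 libraries.

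**Figure D5:**
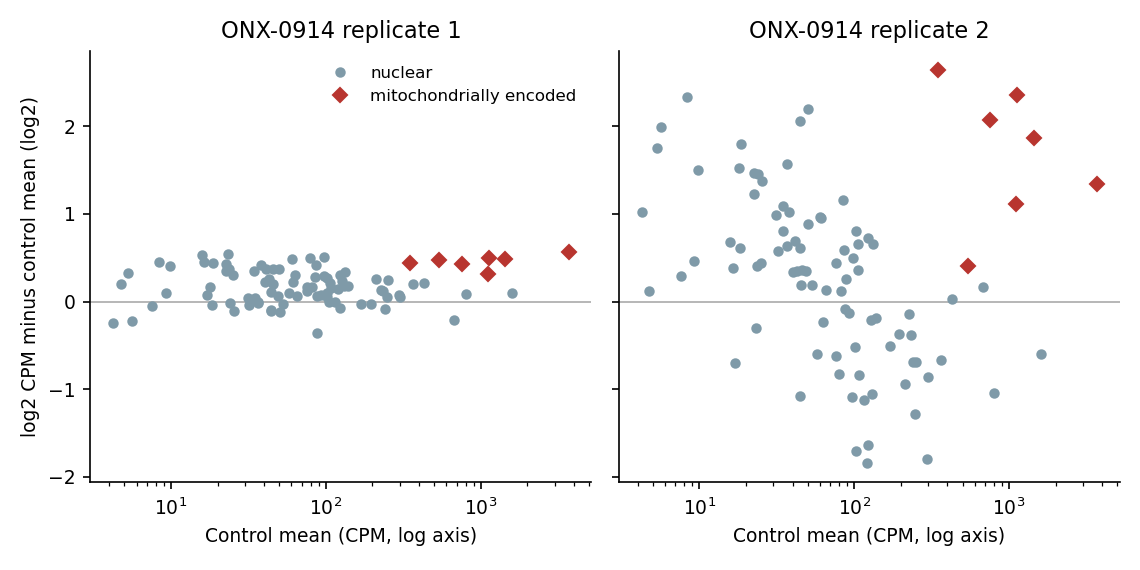
Difference of log2 CPM from the control mean against the control mean (CPM, log axis) for ONX-0914 replicate 1 (left) and ONX-0914 replicate 2 (right), with nuclear members in grey and mitochondrially encoded members in red. On the right, the 28 nuclear members of lowest level have a median of 1.01 and the 28 of highest level one of -0.63, while on the left both are between 0.13 and 0.18.

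Promoters were compared because the nuclear members are known as targets of a few shared factors and yet stood on opposite sides in ONX-0914 replicate 2. RefSeq windows of 300 bases around the start site (GRCm38.p6) were found for 75 of 93 nuclear members. The comparison was with all 27025 genes that had a window. These were not limited to protein-coding genes or to genes with counts here, as the members were, so the 2 sets are unlike. The NRF1 motif, searched as GCGCATGCG on both strands, was present in 11 of the 75 (14.7%), against 1.95% of 27025 genes. The ETS motif bound by GABPA, searched as CCGGAAG, was present in 18 (24.0%), against 9.93%. YY1, searched as AAGATGGCG, had 8 (10.7%), against 1.64%, and the ERR motif, searched as TCAAGGTCA, had 2 (2.67%), against 0.466%. The windows of Cycs, of the nuclear member with the highest fold change in ONX-0914 (Ndufa11) and of the one with the lowest (Ndufa9) are shown, with the motif matches in capitals, NRF1 in the first and second and YY1 in the third. Their positions are chr6:50566520-50566819 on the minus strand, chr17:56717512-56717811 on the plus strand and chr6:126849095-126849394 on the minus strand.
Cycs: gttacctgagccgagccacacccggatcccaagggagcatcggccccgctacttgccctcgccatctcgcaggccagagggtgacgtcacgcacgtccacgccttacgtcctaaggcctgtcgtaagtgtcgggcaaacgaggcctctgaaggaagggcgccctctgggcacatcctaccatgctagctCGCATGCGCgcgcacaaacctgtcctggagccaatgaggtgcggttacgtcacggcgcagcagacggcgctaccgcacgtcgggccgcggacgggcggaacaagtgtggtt
Ndufa11: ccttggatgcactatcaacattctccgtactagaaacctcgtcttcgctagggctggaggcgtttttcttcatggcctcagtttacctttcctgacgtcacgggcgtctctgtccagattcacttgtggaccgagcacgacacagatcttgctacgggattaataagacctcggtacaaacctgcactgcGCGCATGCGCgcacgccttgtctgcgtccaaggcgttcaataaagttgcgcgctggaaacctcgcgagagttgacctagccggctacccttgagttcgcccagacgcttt
Ndufa9: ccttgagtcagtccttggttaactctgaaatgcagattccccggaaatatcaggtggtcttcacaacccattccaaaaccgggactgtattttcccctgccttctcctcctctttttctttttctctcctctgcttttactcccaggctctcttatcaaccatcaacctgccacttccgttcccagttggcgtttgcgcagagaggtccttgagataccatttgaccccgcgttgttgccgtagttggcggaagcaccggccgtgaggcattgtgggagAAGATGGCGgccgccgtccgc
The NRF1 match of Ndufa11 reads on both strands, and the matches overlap. Members with an NRF1 match included Ndufa11, Atp5g2 and Atp5k, among the highest fitted values, and Cycs, whose value was -0.23. Members with a YY1 match included Ndufa9, among the lowest, and Ndufs7, whose value was 0.94. Such matches describe letters in a window and show no binding.

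Genes around the chain were read in the same edgeR fit, and none of those in the lists was called, whereas DESeq2 called mt-Rnr1 and 5 ribosomal protein genes in ONX-0914, against 2.83% of all genes. A list of 39 genes held other assembly factors of the complexes and Cyc1, a subunit of complex III whose symbol lies outside the rule. Among the 34 tested, the median log2 fold change in ONX-0914 was 0.12. At an unadjusted p under 0.05, 5 were higher (Surf1, Cox10, Sdhaf3, Sdhaf4 and Atpaf1), where 10.1% of all genes were. Among 21 tested genes that copy, transcribe and process the mitochondrial genome, the median was 0.16, with 4 higher (Tefm, Mtpap, Fastkd1 and Rmnd1), and -0.051 without ONX-0914 replicate 2. Tfam, which packages mitochondrial DNA and activates its promoters, had 53.2, 52.9 and 47.2 CPM in control, 53.4 and 41.6 in DMSO, and 49.4 and 29.3 in ONX-0914 (-0.39, SE 0.25). Among 9 tested regulators of biogenesis, the median was -0.003, and 0.17 without ONX-0914 replicate 2. Of these 9, Ppargc1a and Esrrg were higher at an unadjusted p under 0.05, against 10.1% of all genes, and Nrf1 was lower, against 7.73%. Ppargc1a, a coactivator of respiratory genes, had 33.0, 29.6 and 36.2 CPM in control, 32.9 and 33.8 in DMSO, and 54.1 and 50.1 in ONX-0914 (0.66, SE 0.17, FDR = 0.146). Nrf1, the factor of the motif above, had 30.5, 26.9 and 23.6 CPM in control, 26.2 and 27.0 in DMSO, and 21.3 and 16.7 in ONX-0914 (-0.52, SE 0.21, FDR = 0.262). Hence, both ONX-0914 libraries were above the other 5 for Ppargc1a and below them for Nrf1, while DMSO overlapped control for both genes. Of the 9 regulators, both ONX-0914 libraries lay above all control libraries in 3, against 16.9% of all genes. They lay below all control libraries in 2, against 16.3%.

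The 13 enzymes of the tricarboxylic acid cycle had a median of 0.09 in ONX-0914, with Fh1 and Mdh2 higher at that p, against 10.1% of all genes. The 2 mitochondrial ribosomal RNAs had a median of 1.23 in ONX-0914 and 1.29 in DMSO, with both genes higher at that p in each comparison, against 10.1% and 1.51% of all genes. mt-Rnr1 had 677, 474 and 344 CPM in control, 1372 and 1229 in DMSO, and 810 and 1626 in ONX-0914, and the order of the libraries was the same for mt-Rnr2. The 91 tested cytosolic ribosomal protein genes, short abundant messages like many nuclear members, included 26 that were higher and 2 that were lower in ONX-0914 at that p, against 10.1% and 7.73% of all genes. They had a median of 0.21 in ONX-0914 and 0.31 in DMSO, beside 0.22 and 0.17 for the nuclear members. When ONX-0914 replicate 2 was left out, the median in ONX-0914 was 0.036 for the ribosomal protein genes and 0.62 for the ribosomal RNAs.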

How the data were processed

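RNA-seq libraries of hippocampal total RNA were analysed in 3 control, 2 DMSO and 2 ONX-0914 samples. The libraries were directional and sequenced single-end. The authors deposited raw counts per gene, without normalization, 1 file per library, and the submitters' processing notes name Trimmomatic 0.39, STAR 2.7.3a, featureCounts 2.00 and the build GRCm39. The annotation and strand setting are not given in the sources used here. Of the reads, 89.6% to 91.4% were assigned to genes, 4.75% to 6.49% met no gene and 3.75% to 3.92% were ambiguous, and unassigned reads were left out.

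Symbols, types and transcripts came from GENCODE M21 (GRCm38), which named 52135 of 55416 identifiers, so no gene coordinates of the files are given. Lengths are those of the principal transcript. Windows of 100 bases were compared between annotated transcripts. Promoters came from RefSeq by symbol.

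The counts were tested with edgeR 4.0.16 in R 4.3.3: filterByExpr over the groups, TMM scaling (factors 0.966 to 1.10), glmQLFit and glmQLFTest with 1 mean per group over 7 libraries, and Benjamini–Hochberg adjustment over 13152 genes at 0.05. Fold changes used a prior count of 0.125 and log2 CPM a prior count of 2. SEs are the fold change divided by the square root of F. The steps were tested on simulated data. DESeq2 1.42.0, other scalings, filters, designs and left-out libraries were alternatives. The members and lists were chosen with earlier results of these data known. Genes named in full were the mitochondrially encoded members, any called member, the most abundant member of each complex per length, the 5 highest and 5 lowest fold changes, the tissue isoforms, complex II and Cycs. Ndufs7, Ndufa10, Ndufs6, Cox6c, Uqcrc2, Tfam, Ppargc1a and Nrf1 were named after their values were seen. The results of 1 gene are not reported here.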

Additional observations from a re-analysis of the deposited data

Results flagged for a closer look

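Some genes with respiratory chain symbols that were not among the members tested with all libraries had a signal in ONX-0914 replicate 2 above all control libraries. Such a position was common, since that library lay above the other 6 in 30.3% of all genes tested. The genes below are therefore listed only, and are not read as set apart from genes at large. Cox4i2, the isoform of Cox4i1 known from lung, had 1.45 CPM there, against 0.27 to 1.06 CPM in control, from 22 counts. Ndufa4l2, a paralog of Ndufa4 known as a hypoxia-responsive gene, had 1.64 CPM, against 0.355 to 0.823 CPM in control. These came from 25 counts against 1 to 3 in the control libraries. For Ndufa4l2, ONX-0914 replicate 1 was above control too. Atp5l, subunit g of ATP synthase, had 3.68 CPM, against 0.251 to 1.42 CPM in the other 6 libraries. These came from 56 counts against 1 to 5 in each of the others. Without ONX-0914 replicate 1, Atp5l passed the filter only through ONX-0914 replicate 2, the single library then left in that group (log2 fold change 1.61). Atp5l is counted among the members called higher in that fit, and nothing further is drawn from that value. Ndufb1-ps, which carries the symbol of a complex I subunit but is not annotated as protein-coding in GENCODE M21, had 28.0 CPM, against 3.53 to 5.68 CPM in control, 6.14 and 8.88 CPM in DMSO and 6.01 CPM in ONX-0914 replicate 1. Its log2 fold change in ONX-0914 was 1.94 (SE 0.58, FDR = 0.166). Cox4i2, Ndufa4l2 and Atp5l did not pass the filter on low counts with all libraries, and ONX-0914 replicate 2 was the deepest library. Cox7b2, Cox6a2, Cox6b2, Cox7a1 and Cox8b, members also not tested with all libraries, did not lie above all control libraries in it.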

How the results depend on the processing

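The result rests on which ONX-0914 library is kept. The number of members called between ONX-0914 and control was 0 with all libraries (18 of all genes), 7 with DESeq2 (362 of all genes), 23 without the filter on low counts (1118 of all genes), and 0 to 67 when 1 library was left out, with 67 without ONX-0914 replicate 1 (42 higher, 25 lower, and 6319 of all genes) and 8 without ONX-0914 replicate 2 (2500 of all genes). For DMSO against control it was 4 with the compared groups only (137 of all genes) and 0 to 4 with 1 library left out, with 4 without ONX-0914 replicate 2 (135 of all genes) and 3 without ONX-0914 replicate 1 (115 of all genes). For ONX-0914 against DMSO it was 8 without the filter (772 of all genes) and 0 to 62 with 1 library left out, with 62 without ONX-0914 replicate 1 (5750 of all genes) and 1, a lower value, without ONX-0914 replicate 2 (2224 of all genes). The median log2 fold change of the nuclear members in ONX-0914 was 0.36 with total counts, where the median of all genes was 0.19 in place of 0.05, 0.31 without the filter, and 0.14 to 0.34 with 1 library left out. That of the mitochondrially encoded members was 0.46 to 1.84 with 1 library left out, and above 0 under every alternative run. Replicate numbers were not taken to pair the libraries. Same-numbered libraries had correlations of deviations from the group mean from -0.10 to 0.06. These values cannot decide on pairing, because the deviations mirror each other in a group of 2 libraries. With the replicate block, no member was called in any comparison and the nuclear median in DMSO was 0.24 in place of 0.17. The mitochondrially encoded median in DMSO was 0.30 with the block in place of 0.45, and 0.30 to 0.57 with 1 library left out.

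With 1 library left out, the log2 fold change in ONX-0914 ran across 0 for each gene named next, with 1 end reached without ONX-0914 replicate 1 and the other without ONX-0914 replicate 2. Among those whose sign was negative with all libraries, it ran from -1.80 to 0.073 for Ndufa9, -1.73 to 0.097 for Ndufb6, -1.86 to 0.14 for Ndufa12, -0.617 to 0.0885 for Cycs, -1.05 to 0.083 for Sdha, -1.07 to 0.18 for Sdhd, -1.66 to 0.30 for Ndufa1, -1.11 to 0.28 for Uqcrb, -0.614 to 0.089 for Atp5b, -0.703 to 0.24 for Cox6b1 and -0.841 to 0.49 for Ndufs6. Among the others, it ran from -0.11 to 2.05 for Atp5d, -0.24 to 2.05 for Atp5g2, -0.024 to 1.57 for Cox7a2, -0.082 to 0.716 for Cox8a and -0.022 to 1.46 for Ndufs7. Ndufs6 also changed sign with total counts (0.084) and without control replicate 3 (0.0081). The cause was not tested. Of the other values of the 35 genes followed, 481 kept their direction and side of the threshold and 61 passed it, 33 of these without ONX-0914 replicate 1. When ONX-0914 replicate 2 was thinned to the total of ONX-0914 replicate 1, an alternative chosen after seeing the data, 35 of 35 kept both. The 8 members that were not tested with all libraries had few counts, most under 50 in all, and the reason was not tested.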
